A study of Homo sapiens with 18 samples.

Results

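The clustered protocadherin genes were described here through 59 peaks of open chromatin among the 334857 peaks counted in the study. A peak was a member when it lay on chromosome 5 (hg38) and overlapped the body, or the 3 kb upstream, of a protein-coding GENCODE gene whose symbol starts with PCDHA, PCDHB or PCDHG. The 53 genes split into 15 of the alpha cluster (PCDHA), 16 of the beta cluster (PCDHB) and 22 of the gamma cluster (PCDHG). They held 14, 18 and 27 peaks in that order, and no peak fell in more than 1 cluster. The rule used position only, but the peaks were called from these libraries, and members were chosen with earlier results of these data known.

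Accessibility was measured by Omni-ATAC, in which a transposase cuts open chromatin, in Ccd18-Co, an established line of colon fibroblasts. Each of 3 groups held 6 of the 18 libraries. Unstimulated cells received no cytokine pulse. Both other groups had 3 pulses of TNF, OSM and IL-17A at 10 ng/ml each with IL-1B at 0.1 ng/ml, each pulse lasting 72 h in medium without serum and followed by 96 h of recovery. After a week of rest these cells were given either the solvent DMSO or belinostat, a histone deacetylase inhibitor, at 250 nM for 5 days, and extracts were made 2 weeks later. These concentrations are those of the labels, and the study's text gives a higher one for belinostat and, in its methods, a lower one for IL-1B. The labels do not say whether the unstimulated cells met DMSO. The methods state that the solvent was held constant over treatment groups, and name unstimulated cells given DMSO in another assay. All libraries come from 1 line, and the labels do not say whether replicates were separate cultures, so p-values measure the spread between these libraries. DMSO against unstimulated cells is called the cytokine contrast, belinostat against DMSO the belinostat contrast, and belinostat against unstimulated cells the residual contrast. Any pair of these contrasts shares a group of libraries.

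Clustered protocadherins are cell surface adhesion proteins, best known from neurons, where each cell uses its own combination of them to tell itself from its neighbours. Each alpha and gamma gene has a variable exon with its own promoter, which is spliced to constant exons shared by the whole cluster, whereas beta genes are single exons. Most of these promoters carry a conserved element around the letters CGCT, and CTCF and cohesin bring chosen promoters to enhancers elsewhere in the locus. The C-type genes PCDHAC1, PCDHAC2, PCDHGC3, PCDHGC4 and PCDHGC5 stand at the end of the alpha and gamma variable exons and are regulated differently from the others.

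RefSeq promoter sequences (GRCh38.p14, 250 bases before to 50 after the start) matched 47 of the 53 genes. CGCT on the sense strand, with its first base 30 to 90 bases before the start, was found in 42 of these 47 promoters (89.4%), against 22.7% of 27305 RefSeq genes. The share was 92% of 25 promoters whose gene had a peak at its start and 86.4% of 22 without one. CGCT was thus also there where no peak was called, but CGCT alone does not identify the conserved element. The windows below are printed to show how alike the letters around CGCT are within a cluster. They cover genes with a start peak (PCDHA2, PCDHA4, PCDHA7, PCDHB2, PCDHB3, PCDHB16, PCDHGA10, PCDHGA11) and without one (PCDHA5, PCDHA8, PCDHB4, PCDHB15, PCDHGA3, PCDHGA6). All are read 5′ to 3′ on the plus strand of hg38, upstream of the start, with CGCT in capitals.
PCDHA2, chr5:140794767-140794816: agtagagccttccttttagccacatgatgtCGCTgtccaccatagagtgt
PCDHA4, chr5:140806965-140807014: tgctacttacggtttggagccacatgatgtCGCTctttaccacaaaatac
PCDHA7, chr5:140834158-140834207: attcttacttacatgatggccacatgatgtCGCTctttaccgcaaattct
PCDHA5, chr5:140821528-140821577: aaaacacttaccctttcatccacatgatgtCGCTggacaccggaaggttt
PCDHA8, chr5:140841116-140841165: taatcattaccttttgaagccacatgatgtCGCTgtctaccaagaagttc
PCDHB2, chr5:141094530-141094579: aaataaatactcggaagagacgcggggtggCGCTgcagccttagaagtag
PCDHB3, chr5:141100379-141100428: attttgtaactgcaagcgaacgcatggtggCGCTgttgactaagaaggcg
PCDHB16, chr5:141182296-141182345: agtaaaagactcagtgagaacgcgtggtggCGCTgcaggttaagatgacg
PCDHB4, chr5:141121709-141121758: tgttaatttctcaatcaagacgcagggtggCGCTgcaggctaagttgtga
PCDHB15, chr5:141245300-141245349: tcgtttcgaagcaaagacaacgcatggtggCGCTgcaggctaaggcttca
PCDHGA10, chr5:141412917-141412966: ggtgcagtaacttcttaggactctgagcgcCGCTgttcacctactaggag
PCDHGA11, chr5:141420958-141421007: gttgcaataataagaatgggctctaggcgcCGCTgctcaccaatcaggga
PCDHGA3, chr5:141343753-141343802: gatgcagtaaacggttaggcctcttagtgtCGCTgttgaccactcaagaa
PCDHGA6, chr5:141373821-141373870: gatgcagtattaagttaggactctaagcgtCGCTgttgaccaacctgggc

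The letters before CGCT differed by cluster. The commonest run of 9 letters holding it was GATGTCGCT in the alpha cluster (9 of 13 promoters), GGTGGCGCT in the beta cluster (13 of 14) and GCGCCGCTG in the gamma cluster (10 of 20). None of the 3 runs occurred in a promoter of another cluster. In the promoters of all RefSeq genes they occurred in 0.0879%, 0.374% and 0.743%, in that order. These runs were read from the member promoters themselves, so their counts are a description. The C-type promoters PCDHAC1, PCDHAC2, PCDHGC3 and PCDHGC4 held CGCT in the window too, within other letters.

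Libraries held 4661678 to 11352032 counts in peaks, and members took 153 to 171 CPM (counts in 1e+06 counts in peaks) in every one of them. A member peak gathered 43 to 3997 counts over all 18 libraries, with a median of 98, so most single peaks were thinly counted and only 9 passed 500 counts. Start peaks were present for 12 of 13 fibroblast marker genes, with a median level of 16.1 CPM per kb in unstimulated cells (CPM divided by peak length). Levels ran from 8.13 (PRRX1) to 68 (COL1A1). COL1A2 and VIM were among the stronger ones, and DCN, LUM and FAP among the weaker. Among immune markers CD3E had one, at 1.88 CPM per kb, and PTPRC, SPI1, CD79A and LYZ had none. Neuronal and glial markers had start peaks in 5 of 8 genes, of which TUBB3 stood at 103 and the other 4 at 3.61 to 5.97 CPM per kb. Epithelial markers had 4 of 6 and endothelial markers 4 of 5, all under 6 CPM per kb. The summed CPM of the fibroblast start peaks ran from 303 to 360 in unstimulated, 221 to 281 in DMSO and 190 to 297 in belinostat libraries. That of the epithelial ones ran from 6.1 to 10.1, 6.45 to 10.2 and 7.22 to 10.2, and of the endothelial ones from 8.86 to 12.5, 8.53 to 10.9 and 8.46 to 11.7. Neuronal and glial sums ran from 48.6 to 55, 40.9 to 49.7 and 37.1 to 51.3. Fibroblast sums were thus lower in every pulsed library than in any unstimulated one, while neuronal and glial sums overlapped between groups and were carried by TUBB3 (cytokine log2 fold change -0.35, edgeR adjusted p 0.0113), and the other 4 genes did not pass. Their part in the results that follow was not tested. In bulk libraries fewer open cells and less opening per cell cannot be told apart.

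Open chromatin was called at the starts of some, not all, clustered protocadherin genes in these fibroblasts. A peak overlapped the 500 bp on either side of the annotated start for 5 of 15 alpha genes, 11 of 16 beta genes and 13 of 22 gamma genes, or 29 of 53 in all (54.7%), against 76.6% of 20033 protein-coding genes. The alpha genes with a start peak were PCDHA2, PCDHA4, PCDHA7, PCDHAC1 and PCDHAC2. In the beta cluster PCDHB4, PCDHB5, PCDHB7, PCDHB9 and PCDHB15 had none. In the gamma cluster both PCDHGC3 and PCDHGC5 had one and PCDHGC4 had none. Of the 59 member peaks, 39 (66.1%) lay within 500 bp of a coding transcript's start, against 7.41% of all peaks and 11% of 373 other peaks within 1 Mb. Members were richer in CpG, with a median observed to expected ratio of 0.596 against 0.191 in all peaks, at a similar GC content (52% and 50.1%). CGCT on either strand stood in 86.4% of members, against 34% of peaks near the median member length (within 10% of 240 bp). An AP-1 word (TGANTCA, either strand) stood in 5.08% of members, 20.1% of all peaks and 15.9% of peaks of that length. A CTCF core word was taken as AGGGGGC or the variant AGGTGGC, or as a further form AGATGGC, or as the form AGAGGGC, on either strand. Such a word stood in 20.3% of members, 27.8% of all peaks and 21.1% of peaks of that length. Members ran from 150 to 1304 bp, and longer peaks hold more words. CGCT stood in 71.1% of peaks near 777 bp and in 92.9% of those near 1240 bp. The peaks compared were not matched to members for CpG or for nearness to starts. Many promoter peaks also overlap unnamed transcripts or the antisense gene PCDHB1-AS1, and ATAC-seq does not assign accessibility to either.

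**Figure D1:**
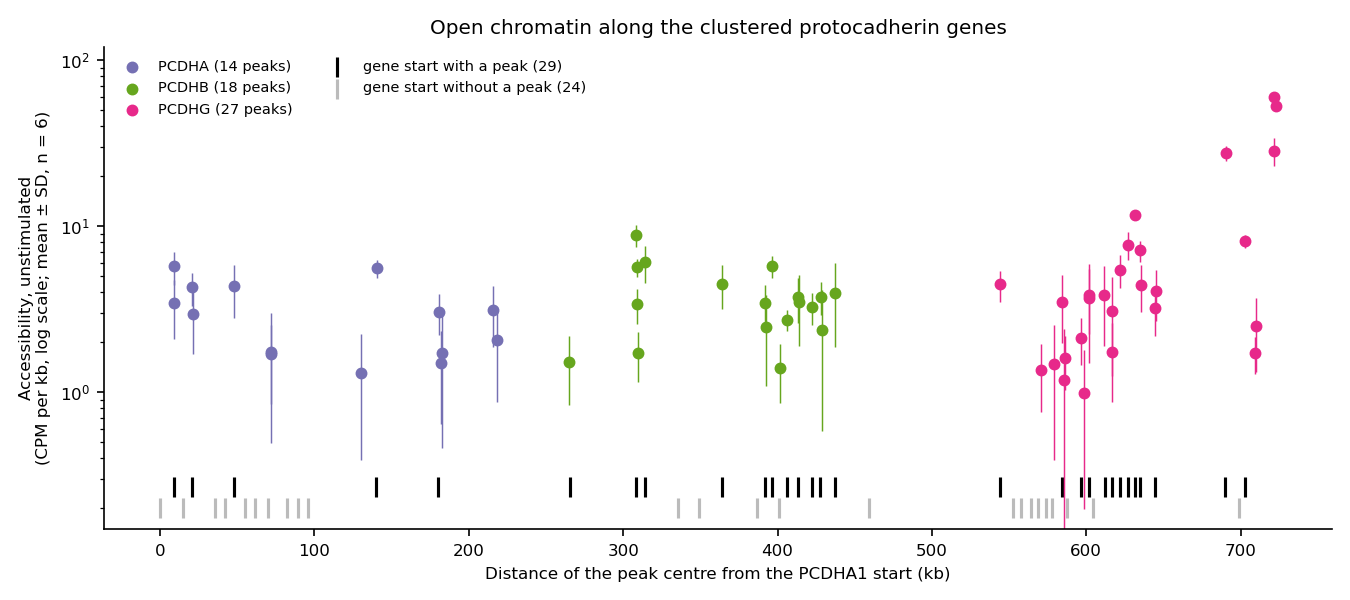
Accessibility of the 59 member peaks in unstimulated cells, in CPM per kb on a log axis (mean and SD of 6 libraries), against distance from the PCDHA1 start in kb; a bar that would reach 0 is cut. Short strokes mark the 29 gene starts with a peak (black) and the 24 without (grey), and the 4 highest points, the PCDHGC3 start and 3 peaks of the last gamma intron, lie at the far end of the gamma cluster.

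Accessibility was concentrated at the end of the gamma cluster. Gamma peaks took 15817 counts, or 76.9% of those in members, and the 3 most counted peaks took 50.8%. These were the PCDHGC3 start and a pair in the last intron of the cluster, between the last pair of constant exons (141505393 to 141505481 and 141510947 to 141512975), which the gamma genes share. The peak from 141507747 to 141508181 stood at 59.9 ± 4.16 CPM per kb in unstimulated cells (SD, n = 6), above 99.6% of all peaks on its mean over all libraries. It overlaps the first exon, at 141508070 to 141508283, of a PCDHGC3 transcript without a defined coding sequence. The peak from 141508761 to 141509537 overlaps no exon and stood at 52.9 ± 3.78, and a narrower peak from 141507414 to 141507607 at 28.5 ± 5.34. The 141508761 peak held a CTCF core word and an AP-1 word, which are shown because its accessibility changed most firmly of all members. These words occur in 47.6% and 38.1% of peaks of similar length (within 10% of its 777 bp), so neither is unusual.
CTCF core word, chr5:141508840-141508946: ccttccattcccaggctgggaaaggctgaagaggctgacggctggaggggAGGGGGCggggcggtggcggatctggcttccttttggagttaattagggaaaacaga
AP-1 word, chr5:141509369-141509475: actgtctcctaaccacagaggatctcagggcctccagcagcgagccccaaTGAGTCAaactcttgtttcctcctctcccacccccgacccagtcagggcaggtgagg

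Among start peaks PCDHGC3, the C-type gene whose promoter is the widest member at 1304 bp, was far ahead at 27.7 ± 2.91 CPM per kb in unstimulated cells (23.9 to 32, n = 6). PCDHGB7 followed at 11.6 ± 0.606 (10.9 to 12.6), and these libraries did not overlap those of PCDHGC3. The next genes were PCDHB2 at 8.85 ± 1.33, PCDHGC5 at 8.11 ± 0.685 and PCDHGA10 at 7.73 ± 1.49, whose ranges overlapped. The highest alpha gene by its most counted start peak was PCDHAC1 at 5.58 ± 0.696. The weakest starts were PCDHB1 at 1.51 ± 0.676 and PCDHGA9, by the more counted of its pair of start peaks, at 1.74 ± 0.873. The median start peak stood at 4.28 CPM per kb in the alpha, 3.75 in the beta and 4.44 in the gamma cluster, against 22.2 for the 14 listed regulators of the locus and 15.1 for 8 non-clustered protocadherins. Over all libraries the strongest alpha peaks were PCDHAC1, PCDHA4 (140806868 to 140807145) and the second PCDHA2 peak (140795309 to 140795548), and the strongest beta peaks both PCDHB2 start peaks (141094397 to 141094972 and 141095015 to 141095164) and PCDHB3 (141100363 to 141100618).

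**Figure D2:**
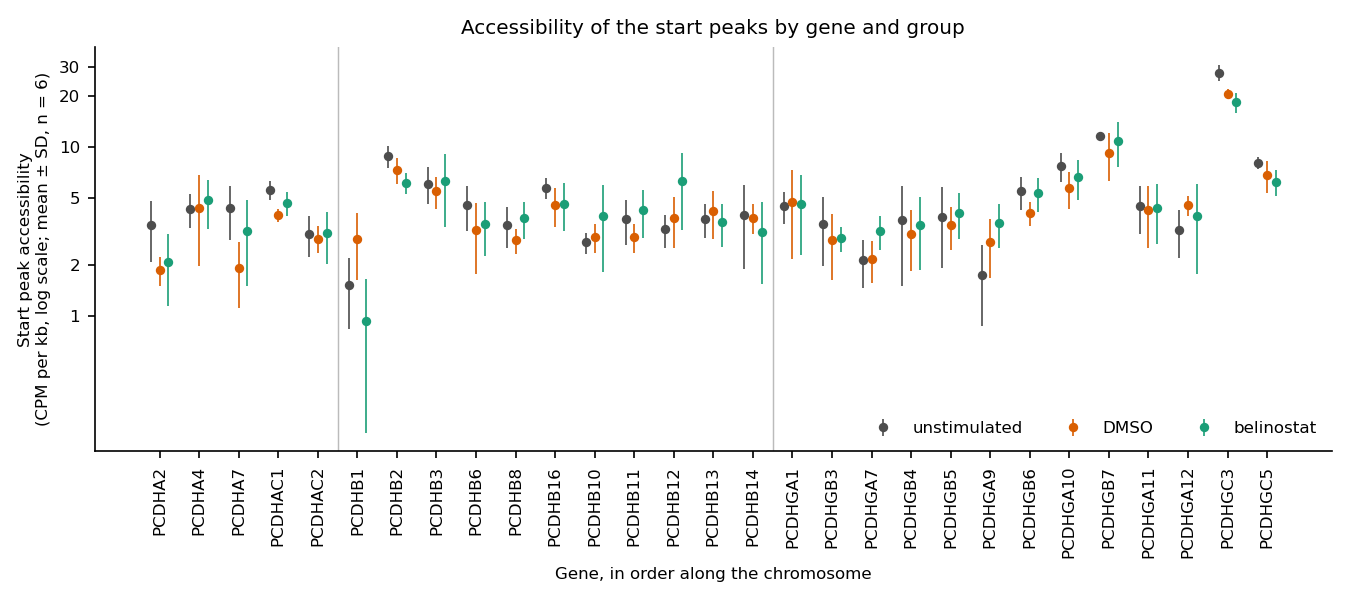
Level of the start peak of each of the 29 genes that had one, in CPM per kb on a log axis (mean and SD of 6 libraries a group), in gene order with grey lines between clusters. PCDHGC3 stood above every other gene in all 3 groups, at 27.7, 20.8 and 18.5 CPM per kb in unstimulated, DMSO and belinostat cells.

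The cytokine contrast asks what accessibility remained altered weeks after the pulses. Few members changed. By edgeR's quasi-likelihood test with Benjamini-Hochberg adjustment over all peaks, 5 of 59 members closed (8.47%) and 1 opened (1.69%), against 9.73% and 9.51% of all peaks. The 5 were 2 alpha and 3 gamma peaks, the 1 that opened was an alpha peak, and no beta peak passed. The median log2 fold change was -0.06 for alpha, -0.09 for beta, -0.12 for gamma and -0.12 for all members, and 0.13 for all peaks. Scaling moved the split. Library totals gave 2 closed and 7 opened members, TMM factors from the weaker 50% of peaks gave 18 and 0, and loess offsets, which level the trend with abundance, gave 3 and 0. Calls over all 334857 peaks moved too. There 10894 closed and 54265 opened with library totals, 83810 and 7584 with the weaker 50%, and 6379 and 6709 with loess offsets. The median of all peaks was 0.34, -0.29 and 0.01 under these, and the median of members 0.09, -0.54 and -0.22.

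By estimate, peaks of the alpha genes PCDHA2 and PCDHA7 fell by the largest factors, but only the second PCDHA2 peak was among the 5 called. That peak lies inside the PCDHA2 exon, with its centre 576 bp past the start. In the second PCDHA2 peak, unstimulated libraries had 0.41, 0.70 and 1.15 log2 CPM (lowest, median, highest), DMSO libraries -0.78, -0.13 and 0.44, and belinostat libraries -0.61, 0.03 and 1.00. DMSO libraries lay below unstimulated ones except for a slight overlap at the edge, and belinostat libraries overlapped both groups. The cytokine log2 fold change was -1.04 ± 0.33 (SE, edgeR adjusted p 0.0187), while loess offsets gave -1.32 (adjusted p 0.00782). It rests on 61 counts in unstimulated and 29 in DMSO libraries. The first PCDHA2 peak (140794695 to 140795135) had -0.80 ± 0.31 (adjusted p 0.0548), and loess offsets gave -1.04 (adjusted p 0.0356). The PCDHA7 start (140834170 to 140834358) had -1.12 ± 0.43 (adjusted p 0.0524), and -1.54 (adjusted p 0.0186) by loess, on 36 against 16 counts. Both PCDHA2 peaks and PCDHA7 made up all of the members called closed with loess offsets. PCDHA4, which carries the same 9-letter run, had -0.01 ± 0.30 (95% interval -0.59 to 0.57).

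The stronger peaks fell by less, with smaller errors. At the PCDHAC1 start (140926208 to 140927442), unstimulated libraries had 2.52, 2.86 and 3.06 log2 CPM and DMSO libraries 2.17, 2.38 and 2.49, without overlap. The log2 fold change was -0.49 ± 0.15 (adjusted p 0.0160). At the PCDHGC3 start (141475681 to 141476984), unstimulated libraries had 4.98, 5.16 and 5.39 and DMSO libraries 4.62, 4.78 and 4.90, again without overlap, for a change of -0.41 ± 0.11 (adjusted p 0.00409). The 141508761 peak, the most counted of the last gamma intron, had 5.23, 5.38 and 5.50 in unstimulated and 4.63, 4.93 and 5.10 in DMSO libraries, also without overlap, for -0.47 ± 0.11 (adjusted p 0.00105). The PCDHGA10 start (141412832 to 141413531) had 2.10, 2.63 and 2.73 against 1.67, 2.07 and 2.44, which overlapped, for -0.46 ± 0.17 (adjusted p 0.0408). Non-overlap with DMSO lower was seen in 3 of 59 members and in 3.82% of all peaks.

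Strong peaks of all kinds also fell in this contrast, and weak ones rose. All peaks averaging 4.5 to 5 log2 CPM, as PCDHGC3 and the 141508761 peak do, had a median cytokine change of -0.37 and a lower quartile of -0.43. The median and lower quartile were -0.30 and -0.44 from 2.5 to 3 log2 CPM (PCDHAC1), and -0.26 and -0.42 from 2 to 2.5 (PCDHGA10), and the median was 0.51 from -0.5 to 0. PCDHGC3 thus lay within the middle 50% of peaks of its abundance, and the other 3 below the lower quartile of theirs, by less than their SE. All 4 were picked as called closed, so a low place was in part set by that choice. Of 15 members averaging at least 1 log2 CPM, 4 closed (26.7%), against 31.9% of all such peaks. With loess offsets PCDHGC3 had -0.02 (adjusted p 0.879), the 141508761 peak -0.09 (0.445), PCDHAC1 -0.22 (0.379) and PCDHGA10 -0.23 (0.422), and none passed. With loess and GC offsets the 141508761 peak passed again (adjusted p 0.0207).

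The opened member was a variable exon, not a promoter. In the PCDHAC2 exon, 1573 bp past the start (140967946 to 140968141), unstimulated libraries had -1.27, -0.84 and -0.18 log2 CPM, DMSO libraries -0.27, -0.01 and 0.58, and belinostat libraries -1.04, -0.47 and 0.33. Unstimulated and DMSO libraries overlapped slightly. The cytokine log2 fold change was 1.39 ± 0.46 (adjusted p 0.0229) on 13 against 35 counts. Loess offsets gave 0.94 (adjusted p 0.216). A second peak of the same exon (140968963 to 140969139) had 1.21 ± 0.47 (adjusted p 0.0553). The PCDHAC2 start itself had -0.12 ± 0.19 (95% interval -0.49 to 0.25). The 20 members away from coding starts had a median cytokine change of 0.30 and the 39 near them -0.20, beside -0.30 for all 24814 peaks near coding starts and 0.40 for all peaks under 1 log2 CPM. DMSO libraries stood wholly above unstimulated ones in 1 member, a gamma peak from 141495078 to 141495522 in the intron past the first constant exon (log2 fold change 0.78 ± 0.32, adjusted p 0.0671), and in 2.25% of all peaks.

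**Figure D3:**
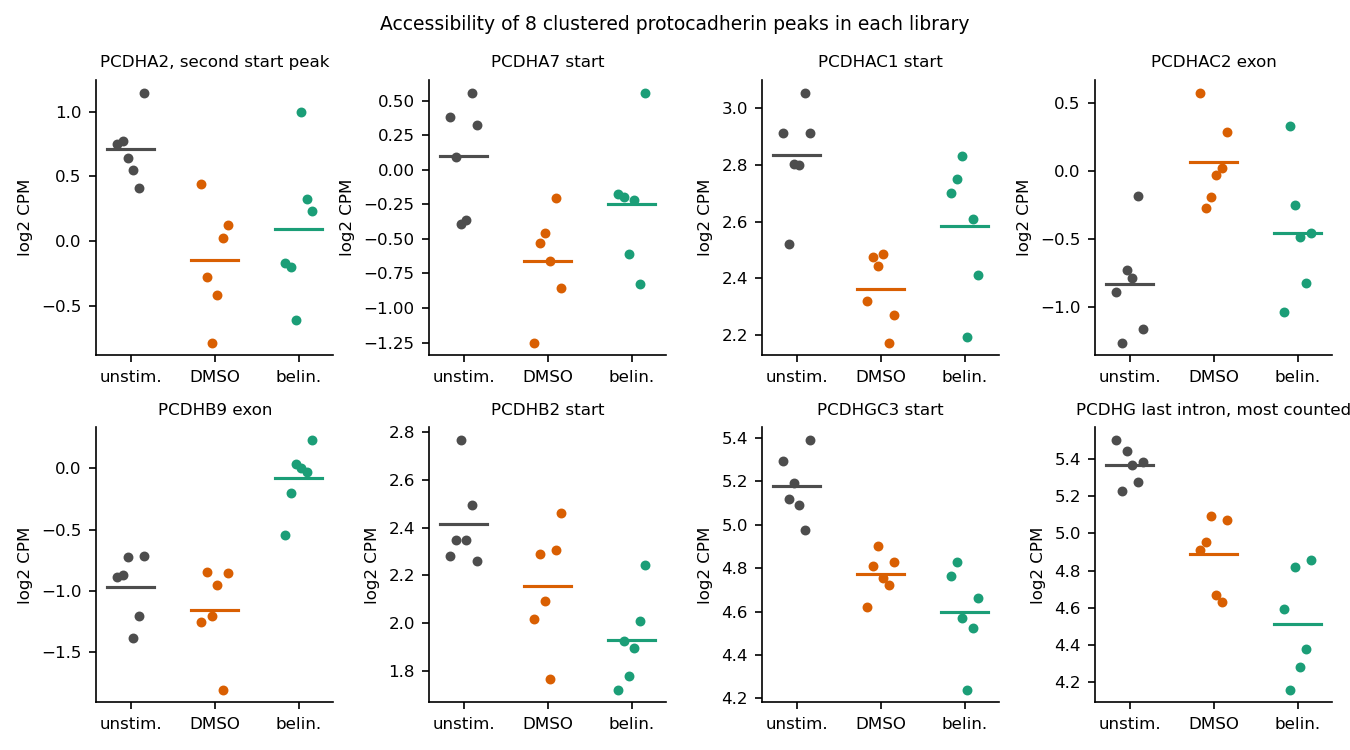
Log2 CPM of 8 member peaks in each of the 18 libraries, with a line at the mean of each group of 6. DMSO libraries lay wholly below unstimulated ones at the PCDHAC1 start, the PCDHGC3 start and the most counted peak of the last gamma intron, and belinostat libraries lay wholly above DMSO ones at the PCDHB9 exon.

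The belinostat contrast asks what the inhibitor altered in pulsed cells. Only 1 of 59 members opened (1.69%) and 0 closed, against 0.607% and 1.75% of all peaks. By unadjusted p under 0.05, 5 members were higher and 4 lower. The share of all peaks at that p was not counted, so this split says nothing particular to members. DESeq2 called 0 opened and 1 closed member, against 1078 opened and 5632 closed of the 133600 peaks it tested. Median log2 changes were 0.10 for alpha, 0.22 for beta, 0.17 for gamma and 0.13 for all members, against 0.01 for all peaks. Changes were above 0 in 36 of 59 members and in 170428 of all 334857 peaks. With loess offsets the median of all members was 0.05 and that of all peaks 0.0034.

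The opened peak lay in the single exon of PCDHB9, 753 bp past its start (141187798 to 141187963). Unstimulated libraries had -1.38, -0.88 and -0.72 log2 CPM, DMSO libraries -1.81, -1.08 and -0.85, and belinostat libraries -0.54, -0.01 and 0.23. Every belinostat library was above every DMSO and every unstimulated one. Such separation from DMSO was seen in 1 member above and 0 below, and in 0.467% and 1.04% of all peaks. The peak is the least counted member, with 10, 8 and 25 counts in the 3 groups and 1 DMSO library at 0. The log2 fold change was 1.83 ± 0.55 (adjusted p 0.0480), and it stayed under 0.05 without 1 of the 12 libraries only, belinostat 1. With loess offsets it was 1.52 (adjusted p 0.117).

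The PCDHB1 peak, just upstream of its start (141050840 to 141051110), went the other way. Unstimulated libraries had -1.16, -0.36 and -0.18 log2 CPM, DMSO libraries -0.54, 0.04 and 0.54, and belinostat libraries -1.81, -0.93 and -0.20. The belinostat change was -1.60 ± 0.51 (adjusted p 0.0690) on 35 against 9 counts, and it passed with loess offsets (-1.75, adjusted p 0.0242) and with the weaker 50% of peaks (adjusted p 0.0465). The 141508761 peak had 4.16, 4.49 and 4.86 log2 CPM in belinostat libraries, overlapping DMSO, with a change of -0.36 ± 0.11 (adjusted p 0.0622), and it passed with the replicate block (0.0286), the filter at average log2 CPM 0 (0.0352) and DESeq2 (0.0396). The 6 members called in the cytokine contrast did not pass here. Their belinostat changes were 0.46 ± 0.38 for PCDHA2, 0.22 ± 0.16 for PCDHAC1, -0.73 ± 0.44 for the PCDHAC2 exon, 0.21 ± 0.18 for PCDHGA10, -0.17 ± 0.11 for PCDHGC3 and -0.36 ± 0.11 for the 141508761 peak. Both contrasts use the DMSO libraries, so the signs of these values are not independent.

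**Figure D4:**
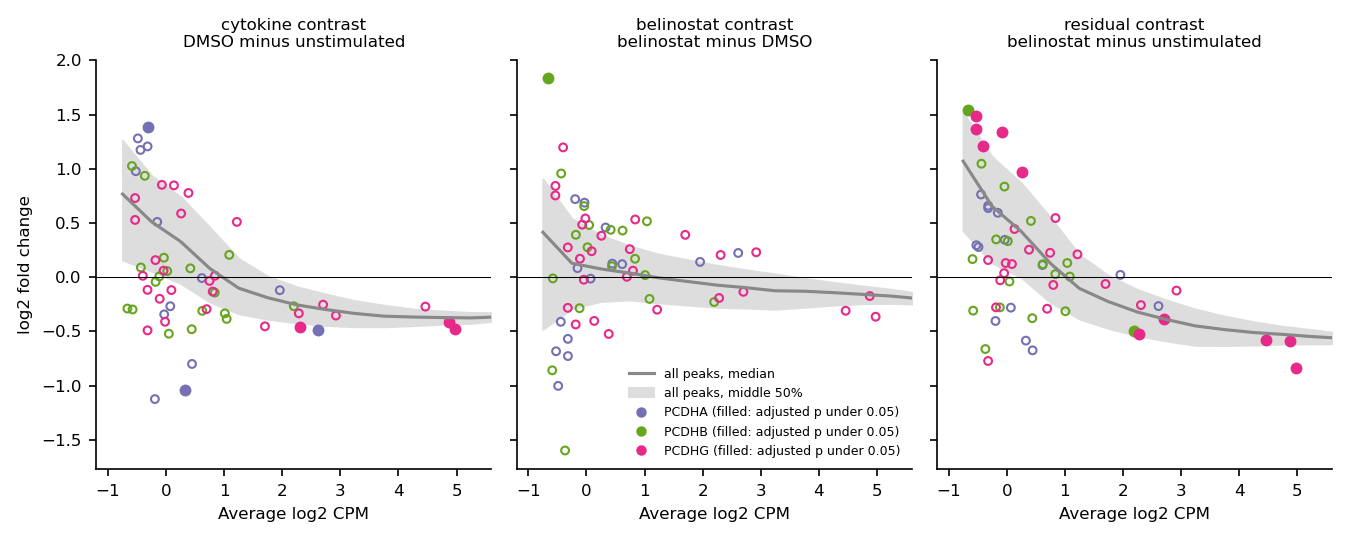
Log2 fold change of the 59 members against average log2 CPM in each contrast, filled where the adjusted p was under 0.05, over the median (grey line) and middle 50% (grey band) of all peaks by abundance. The line of all peaks falls with abundance in the cytokine and residual contrasts, the most counted member (141508761) lies below the band in both (-0.47 and -0.84), and PCDHA2 and PCDHA7 lie below the line in the cytokine contrast.

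The residual contrast compares belinostat-treated pulsed cells with cells never pulsed. Here 6 members opened (10.2%) and 6 closed (10.2%), against 16.8% and 13.7% of all peaks. No alpha peak passed, the beta cluster had 1 in each direction, and the gamma cluster had 5 in each (18.5% of its 27). Library totals gave 10 opened and 3 closed, the weaker 50% of peaks 0 and 17, and loess offsets 0 and 4. Over all 334857 peaks these settings gave 101897 opened and 21124 closed, 9267 and 102230, and 12785 and 16485, in that order. The 6 that closed were all among the 15 members averaging at least 1 log2 CPM (40%, against 44.5% of all such peaks), and the 6 that opened among the 44 weaker ones (13.6% against 22.1%).

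The gamma intron peaks and PCDHGC3 fell most firmly. The 141508761 peak changed by -0.84 ± 0.11 (adjusted p 5.1e-10), from 52.9 ± 3.78 to 29.6 ± 5.99 CPM per kb, with all belinostat libraries below all unstimulated ones. All peaks from 4.5 to 5 log2 CPM had a median residual change of -0.53 and a lower quartile of -0.62. It passed in all 9 other settings and without any of the 12 libraries, with adjusted p up to 0.00914. Its neighbour at 141507747, with 4.57, 4.72 and 4.83 log2 CPM in unstimulated and 4.03, 4.08 and 4.44 in belinostat libraries, changed by -0.58 ± 0.11 (adjusted p 2.78e-05) and by -0.04 with loess offsets (0.777). PCDHGC3 had 4.24, 4.62 and 4.83 log2 CPM in belinostat libraries and changed by -0.59 ± 0.11 (adjusted p 1.07e-05), and by -0.01 with loess offsets (0.923). The 141507414 peak changed by -0.52 ± 0.18 (adjusted p 0.0169), PCDHB2 by -0.50 ± 0.18 (0.0240) and PCDHGC5 (141488574 to 141489455) by -0.39 ± 0.16 (0.0481). Belinostat lay wholly below unstimulated libraries in 4 members, PCDHB2, PCDHGC3 and both larger intron peaks, and in 6.16% of all peaks.

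The 6 residual rises were thinly counted, and 4 of them lay in gamma variable exons. These were a PCDHGA5 peak (141365248 to 141365397, log2 fold change 1.37 ± 0.53), a pair in the PCDHGB3 exon (141371737 to 141371921, 1.48 ± 0.55, and 141372019 to 141372224, 1.21 ± 0.46) and a PCDHGA7 peak (141384203 to 141384569, 1.34 ± 0.44). Their unstimulated counts summed to 11, 10, 15 and 17, and their belinostat counts to 24, 24, 29 and 36. Within each of these 4 peaks the libraries of the groups overlapped. The others were the second PCDHGA9 start peak (141402938 to 141403277, 0.97 ± 0.36) and the PCDHB9 exon (1.54 ± 0.53), where belinostat libraries stood wholly above unstimulated ones, as in 2.58% of all peaks. None of the 6 passed with loess offsets. The loess calls were 4 falls, at both PCDHA2 peaks (-0.98 and -0.95, adjusted p 0.0354 and 0.0437), the second PCDHGB4 start peak (141387854 to 141388028, -1.38, 0.0358) and the 141508761 peak (-0.26, 0.00914).

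Genes that act on the locus were open throughout. All 14 listed regulators had a start peak, among them CTCF, the factor that binds these promoters, the cohesin genes SMC1A and SMC3, the cohesin release factor WAPL, and SMCHD1, SETDB1 and DNMT3B, known for silencing. Of the 14, 11 closed and 0 opened in the cytokine contrast, with a median change of -0.40, while 41.6% of all peaks near a coding start closed and 3.7% opened. CTCF fell by 0.34 on the log2 scale from 72.2 ± 7.40 CPM per kb (SD, n = 6; adjusted p 0.0108). SMCHD1 changed by -0.39 (adjusted p 0.00653), SETDB1 by -0.49 (0.00215) and REST, a silencer of neuronal genes, by -0.47 (0.00102). Over all peaks averaging 3.5 to 6 log2 CPM the median changes lay between -0.38 and -0.36. Not every listed start lies in this range. The CTCF start averaged above 6 log2 CPM, where no median was taken. The kinase genes PTK2 and PTK2B, whose products bind these proteins, changed by -0.39 (adjusted p 0.00793) and -0.46 (0.00140), and CTNNB1 had no start peak. No regulator or kinase start passed in the belinostat contrast.

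Non-clustered protocadherins, which have promoters of their own and no shared exons, had start peaks in 8 of 11 genes. PCDH12 stood highest at 37.7 ± 3.72 CPM per kb and PCDH17 lowest at 2.15 ± 0.209. In the cytokine contrast 3 closed, PCDH10 (-0.56, adjusted p 0.00355), PCDH12 (-0.35, 0.0139) and PCDH18 (-0.38, 0.0118), and 0 opened, with a median of -0.22. Start peaks of the clustered genes had medians of -0.49 (alpha), -0.14 (beta) and -0.20 (gamma), with 1, 0 and 2 closed. All members near a coding start closed in 10.3% of cases, and all peaks near one in 41.6%. These members were weaker, with a median average of 0.446 log2 CPM against 2.97, and closing was called more often in stronger peaks. At an average of at least 1 log2 CPM, wherever they lay, 26.7% of members and 31.9% of all peaks closed. Over all 84 peaks of the non-clustered genes 8.33% opened and 7.14% closed in that contrast. The 373 other peaks within 1 Mb of the clusters had 19 opened (5.09%) and 42 closed (11.3%), and a median of 0.02. No member peak overlapped the neighbouring genes TAF7, SLC25A2, DIAPH1, ZMAT2, HARS1 or HARS2.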

How the data were processed

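Per the labels and the study's methods, the authors ran the ENCODE pipeline for ATAC-seq on hg38, called peaks with MACS2, built a consensus without blacklisted regions and used csaw to count fragments per peak. The deposited table holds these counts as they were, with no scaling by the authors. Reads outside peaks, and the study's background bins, were not used here, so TMM factors came from peak counts. A differing share of background reads could thus raise weak peaks against strong ones. Peak starts are given from 1.

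The test was edgeR's (4.0.16, under R 4.3.3; glmQLFit with the earlier quasi-likelihood method, glmQLFTest), with 1 mean per group over all 18 libraries, and adjusted by Benjamini-Hochberg over 334857 peaks. The authors' filter (average log2 CPM over -3) removed 0 peaks. Log2 CPM used a prior count of 2. Intervals of 95% are the estimate plus or minus 1.96 SE and cover the fitted spread. Genes came from GENCODE release 44 (hg38) and promoters from RefSeq. Alternatives were library totals, TMM over 10 kb bins or the weaker 50% of peaks, loess offsets (limma 3.58.1) without and with GC, DESeq2 1.42.0, a filter at average log2 CPM 0, a replicate block, and leaving out each library.

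Named were up to 6 called members per contrast and cluster by adjusted p, the 3 strongest per cluster, each gene's most counted start peak, and the largest changes among called peaks averaging at least 1 log2 CPM. The further PCDHAC2 exon peak, the PCDHGA5 peak, the second PCDHGB3 exon peak, the second PCDHGB4 peak and the 141495078 peak lie outside this rule and were named after their values were seen. The members and lists were chosen with earlier results of these data known. The code was tested on simulated data. The labels give no batch. Between replicate pairs of a group the chi-square per peak was 1.03 to 2.32, where sampling noise alone gives about 1. No library was thus a copy of another in its group, and each counts once. These values do not tell whether replicates were separate cultures. A listed marker gene is not reported here.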

Additional observations from a re-analysis of the deposited data

Results flagged for a closer look

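One value stood apart from the rest of its group, by its gap to the nearest library as a share of the group's range. In the PCDHGA7 variable exon peak starting at 141384203, library belinostat 1 had -1.81 log2 CPM, the value of a count of 0, and the other 5 belinostat libraries had 0.036 to 0.963. The gap was 0.665 of the range. Of 48 groups of 6 tested, over 15 named peaks and the summed member CPM, this was the only such value, and chance flags about 1 in 20 groups.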

How the results depend on the processing

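The member counts were small and moved with the scaling, and so did the calls over all peaks. In the cytokine contrast DESeq2 closed 18587 and opened 15215 of 334853 peaks. The 10 kb bins closed 26188 and opened 36519 of 334857, and the filter at 0 closed 20021 and opened 22288 of 200098. In the residual contrast DESeq2 closed 33827 and opened 41549, the filter 31902 and 35125, and loess and GC 12102 and 11585. In the cytokine contrast the 5 closed became 2 with library totals or DESeq2, 18 with TMM over the weaker 50% of peaks and 3 with loess offsets, and the 1 opened became 7 with library totals, 3 with 10 kb bins or the filter at 0, and 0 with the weaker peaks, loess (also with GC or with GC and the block) or DESeq2. In the belinostat contrast the 1 opened became 0 and the 0 closed became 1 with the weaker peaks, each loess setting, the replicate block, the filter and DESeq2. Of all peaks, 339 opened and 3325 closed with the weaker peaks, 3163 and 5070 with loess offsets, and 1902 and 6230 with the block. The filter gave 2652 and 6301 of 200098 peaks, and DESeq2 1078 and 5632 of the 133600 it tested. In the residual contrast the 6 opened became 10 with library totals, 0 with the weaker peaks and each loess setting, 2 with the filter and 3 with DESeq2, and the 6 closed became 3 with library totals, loess and GC (also with the block), the filter and DESeq2, and 17 with the weaker peaks. No member called as reported turned its direction in these settings, but some called only elsewhere did. With the weaker peaks and with loess offsets, in that order, the residual change was -0.83 and 0.10 for PCDHAC1 and -0.65 and 0.28 for PCDHGB7, and the cytokine change -0.71 and 0.10 for the 141507747 peak.

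Leaving out 1 library gave 3 to 8 closed and 0 to 3 opened members in the cytokine contrast (8 closed without DMSO 3, 3 without unstimulated 6 or DMSO 4, and 0 opened without DMSO 1), 0 to 2 closed and 0 to 1 opened in the belinostat contrast (2 closed without belinostat 1), and 4 to 6 closed and 1 to 5 opened in the residual contrast (1 opened without belinostat 4 or 5). Over all peaks the cytokine contrast had 37123 closed without DMSO 3, 20700 without unstimulated 6 and 23788 without DMSO 4, and 21863 opened without DMSO 1. The belinostat contrast had 8703 closed without belinostat 1. The residual contrast had 37404 opened without belinostat 4 and 38123 without belinostat 5. Same-numbered libraries deviated from their group means with correlations of -0.198 to 0.106 and came from no stated pairing, so the block shares only a number. It left 6 closed and 1 opened in the cytokine contrast and 6 and 6 in the residual contrast. Near coding starts only, 4 of the 6 cytokine calls and 0 belinostat calls remained. With a median of 98 counts a peak, the median SE of a cytokine change was 0.365. The first PCDHA2 peak, at -0.80 ± 0.31, did not pass (edgeR adjusted p 0.0548). Changes well above their SE could thus go uncalled in most members at this depth.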
